A study of Mus musculus with 22 samples.

Results

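The genes described here are 42 genes of mitosis and the spindle, out of 47311 genes with a transcript in the deposited files. They comprise cyclins and mitotic kinases with the phosphatase gene Cdc25c (8, the kinase and cyclin group), the chromosomal passenger complex (4), and spindle checkpoint and cohesion protection genes (6). Another 5 are coactivators and the ubiquitin-conjugating enzyme of the anaphase-promoting complex, with separase and its inhibitor securin. The others are kinetochore proteins (8), kinesins with other spindle and midzone proteins (8), Top2a and Mki67 as chromosome proteins (2), and Pimreg. The list was drawn up by function and was put together with results of these samples known: it was selected on the KO against WT values of LT-HSCs, in which Pimreg had been noted as higher. Values from LT-HSCs are therefore given as a description, with no test. RNA-seq was done on sorted bone marrow cells of Arid1a f/f;Mx1-Cre+ mice (KO) and of their Arid1a f/f;Mx1-Cre- littermates (WT), on a C57BL/6 background. Exon 9 of Arid1a is flanked by loxP sites, and ARID1A is a DNA-binding subunit of the SWI/SNF chromatin remodelling complexes. Cre is driven by the interferon-inducible Mx1 promoter, so both genotypes received poly(I:C), at 8 to 14 weeks of age, and in the Mx1-Cre experiments of the study cells were examined 4 weeks later. LT-HSCs (CD34-Flt3- cells among lineage-negative Sca1+Kit+ cells) came from 2 WT mice (labelled S245 and S269) and 2 KO mice (S244 and S270). The common myeloid (CMP), granulocyte-macrophage (GMP) and megakaryocyte-erythroid (MEP) precursors came from 3 WT mice (300, 305 and 309) and 3 KO mice (301, 304 and 308), each of which gave all 3 populations. The p-values of KO against WT rest on the spread between these mice. Those of comparisons between populations, interactions included, rest on the spread left with each mouse as a block. Neither kind says anything of other litters or sorts.

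Between 40804031 and 65930737 estimated counts fell on genes in each library. LT-HSC libraries were made with a kit for very small inputs and precursor libraries with another kit, so that a difference between LT-HSCs and precursors and one between kits cannot be told apart. Arid1a was lower in every KO library than in every WT library of the same population, from 50.9 to 53.6 CPM (counts scaled to a fixed library total) against 111 to 119 in LT-HSC to 257 to 285 against 289.9 to 304 in MEP. These counts cover the whole gene and not exon 9 alone, so they are a partial check of the deletion. WT LT-HSC library S245 stood apart, with at least 10 counts on 27257 genes against 18557 to 22465 in the other LT-HSC libraries. The summed levels of granulocyte-monocyte and erythroid markers went with the GMP and MEP labels, but those of some other markers did not go with their labels. The 8 granulocyte-monocyte markers together had 30250.3 to 35403 TPM (transcripts scaled for length and to a fixed library total) in WT GMP and 27.1 to 62.6 in WT MEP, while the 10 erythroid markers had 134 to 181 and 7295 to 8182. The 7 megakaryocyte markers had only 25.8 to 48.4 TPM in WT MEP, against 771 to 1134 in WT CMP. WT LT-HSCs had 4584 to 6645 TPM of the erythroid markers, against 1285 to 1408 in WT CMP. They also had 445 to 2543 TPM of the 6 mature neutrophil markers, against 158 to 358 in WT GMP.

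Most genes of this group are transcribed late in the cell cycle and are known as targets of a shared regulation. In it the DREAM and B-MYB-FOXM1 complexes act through a promoter element named the cell cycle genes homology region (CHR). The CCAAT box, also counted below, is a separate promoter element. At mitotic entry cyclin B and CDK1 phosphorylate many proteins, Aurora and Polo-like kinases build the spindle, and the kinetochore couples each chromosome to microtubules. The spindle checkpoint holds the anaphase-promoting complex inactive until all chromosomes are attached. LT-HSCs are mostly quiescent, while the myeloid and erythroid precursors below them divide often, so the transcripts of these genes in bulk RNA follow both the share of cells near mitosis and the amount of RNA per such cell. These cannot be told apart in bulk samples, and neither can fewer cells of a type and less RNA per cell.

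RefSeq promoter windows of GRCm38.p6, reaching from 250 bases before to 50 bases after the annotated start, were at hand for 34 of the 42 members. Those without a window were Aurkb, Ccna2, Cdc25c, Incenp, Kif20a, Pimreg, Spc24 and Tpx2. TTTGAA, the core of the CHR, was searched on both strands and lay in the windows of 24 of the 34 members (70.6%), against 20.2% of the 27025 gene symbols with a window. CCAAT, also on both strands and with no overlap of its letters with TTTGAA in the sequences printed, lay in 26 of the 34 (76.5%), against 41.1% of all symbols, and both together lay in 20 (58.8%), against 8% of all. With the 50 bases after the start left out, TTTGAA lay in 11 members (32.4%), against 18.3% of all. A match is a description of the letters, not a site. The 150 bases before the start of 4 members are shown as examples of how the matches lie in members whose values are given further on. They lie at chr7:122159285-122159434 (Plk1, plus strand), chr19:37376232-37376381 (Kif11, plus strand), chr11:99024190-99024339 (Top2a, minus strand) and chr7:135716380-135716529 (Mki67, minus strand) of GRCm38.p6, and are written 5′ to 3′ on the strand of the gene. Capitals mark TTTGAA and CCAAT or their reverse complements TTCAAA and ATTGG.
Plk1: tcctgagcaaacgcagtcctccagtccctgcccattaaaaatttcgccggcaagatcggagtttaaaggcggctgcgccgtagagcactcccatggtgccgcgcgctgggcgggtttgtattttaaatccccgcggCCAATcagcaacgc
Kif11: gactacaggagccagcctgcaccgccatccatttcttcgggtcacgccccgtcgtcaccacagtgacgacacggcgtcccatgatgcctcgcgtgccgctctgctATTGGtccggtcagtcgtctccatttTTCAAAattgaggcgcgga
Top2a: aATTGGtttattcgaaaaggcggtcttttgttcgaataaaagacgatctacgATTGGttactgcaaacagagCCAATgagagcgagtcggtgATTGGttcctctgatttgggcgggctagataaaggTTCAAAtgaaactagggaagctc
Mki67: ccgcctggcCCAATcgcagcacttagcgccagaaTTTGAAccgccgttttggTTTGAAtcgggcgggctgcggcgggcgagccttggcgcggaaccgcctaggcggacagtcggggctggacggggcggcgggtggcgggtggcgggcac
Plk1, which encodes Polo-like kinase, has CCAAT 14 bases before its start and TTTGAA at base 31 after it, beyond the stretch shown. In Kif11 (a plus-end motor that pushes spindle poles apart) the reverse complement of CCAAT begins 45 bases and that of TTTGAA 19 bases before the start, and in Top2a (a topoisomerase that untangles sister chromatids) the nearest reverse complements of CCAAT and TTTGAA begin 58 and 23 bases before it. Mki67, which encodes the proliferation marker Ki-67, has both its TTTGAA matches farther out, 116 and 98 bases before the start. Kif11, Top2a and Mki67 were chosen for printing after their values had been seen, and because they have a match of TTTGAA before the start. Only 11 of the 34 members have one there, so these examples do not show where it lies in most members.

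In WT precursors the members spanned a wide range of levels. By TPM, which is scaled for transcript length and so allows genes to be compared, the highest means over CMP, GMP and MEP were those of Top2a (271 TPM), Cdk1 (260.3) and Cenpa (225), and the lowest were those of Sgo1 (23.0), Cdc25c (16.3) and Cenpf (12.8). Top2a had 308, 338 and 312 TPM in the CMPs of WT mice 300, 305 and 309, 237, 279.6 and 244.6 in their GMPs and 214, 263 and 240.4 in their MEPs. Cdk1, the kinase that drives mitotic entry, had 231, 250.2 and 234 TPM in CMP, 232, 228 and 233 in GMP, and 299, 321 and 315 for MEP. Every library of CMP and GMP thus had more Top2a than Cdk1, and every library of MEP more Cdk1 than Top2a. At the low end, Cenpf, a kinetochore and nuclear matrix protein, had 15.9, 18.2 and 14.7 TPM in CMP, 10.1, 13.9 and 11.7 in GMP, and 9.50, 11.0 and 10.4 for MEP. Cdc25c, a phosphatase that activates CDK1, had 17.8, 17.6 and 19.1 TPM in CMP, 13.6, 13.7 and 14.1 in GMP, and 16.4, 17.95 and 16.5 for MEP. Its range overlapped that of Cenpf in CMP and GMP, not in MEP. Sgo1, the protector of centromeric cohesion, had 24.0, 23.1 and 22.6 TPM in CMP, 18.9, 22.6 and 21.4 in GMP, and 23.2, 26.6 and 24.96 for MEP, above both of these genes in every WT library. Judged by the WT mean in TPM, 21 members were highest in MEP, 20 in CMP and 1, Bub1, in GMP.

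**Figure D1:**
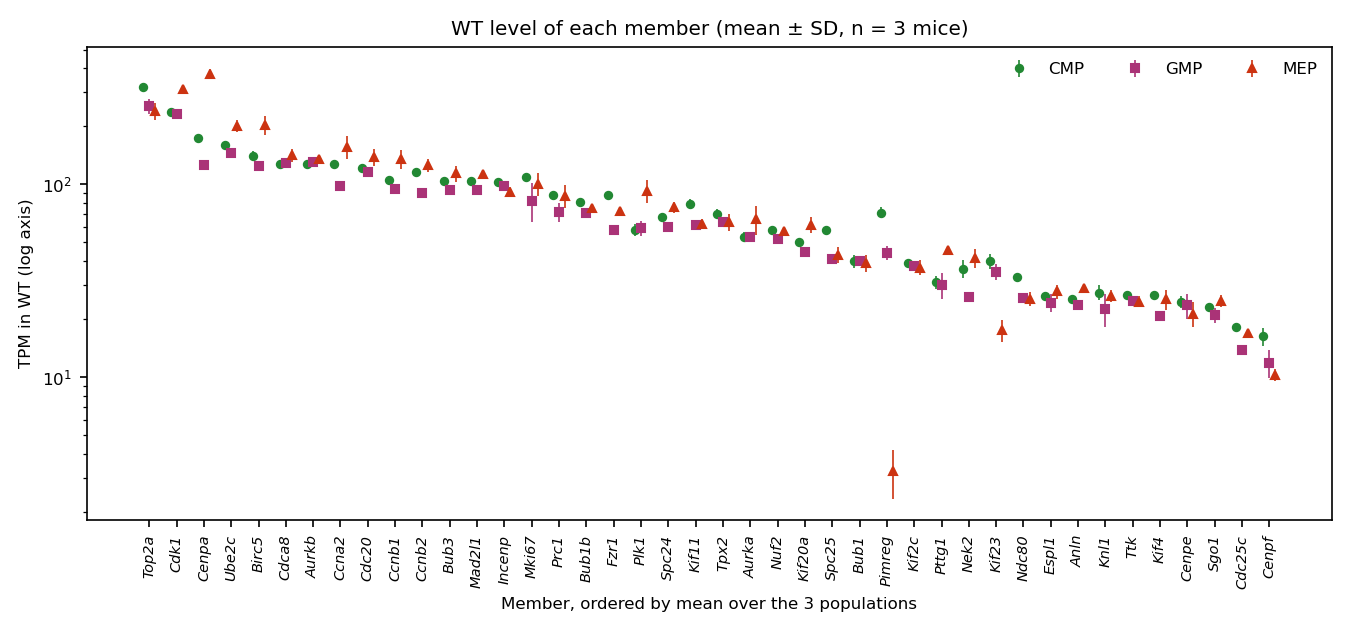
WT level of each of the 42 members in CMP (circles), GMP (squares) and MEP (triangles), as mean TPM on a log axis with the SD of 3 mice, ordered by the mean over the populations. Top2a, Cdk1 and Cenpa stand at the high end, Cenpf at the low end, and the MEP value of Pimreg lies far below its CMP and GMP values.

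The 3 WT populations were compared jointly, in 1 edgeR fit to all 18 precursor libraries that had each mouse as a block, on counts scaled by TMM (a factor per library that centres the bulk of genes), and a difference was called at a false discovery rate (FDR) under 0.1. In WT MEP, 32 members were higher than in WT CMP and 3 were lower, where 33.5% and 37.1% of all 18523 genes tested were called higher and lower. The median difference of the members was 0.32 on the log2 scale, against -0.05 for all genes. Against WT GMP, 36 members were higher in MEP and 2 were lower (35.3% and 35.4% of all genes), with a median of 0.41. All 8 members of the kinase and cyclin group and all 6 checkpoint genes were called higher in MEP than in CMP and than in GMP under TMM. Under library totals alone, a scaling chosen after the data had been seen, Bub1b, Ttk and Cdc25c were not called against CMP, nor was Ttk against GMP, and by mean TPM Bub1, Bub1b, Ttk and Cdc25c were lower in MEP than in CMP, and Bub1 and Ttk lower in MEP than in GMP. Plk1 and Birc5, the survivin subunit of the passenger complex, were among the larger of these, with 0.98 ± 0.06 (SE, adjusted p = 7.79e-09) and 0.82 ± 0.07 (SE, adjusted p = 2.74e-07) against CMP. In GMP, 4 members were higher and 15 lower than in CMP (20.6% and 24.6% of all genes), with a median of -0.02. These counts depended on the scaling. With library totals alone the median of all genes moved to -0.25 for MEP against CMP and -0.15 for GMP against CMP, the members called were 23 higher and 9 lower in MEP than in CMP, and 26 members were lower in GMP than in CMP, with 0 higher by edgeR, also at an unadjusted p under 0.05. By TPM the median difference of the members was 0.03 between MEP and CMP, with 21 of the 42 higher in MEP, 0.28 between MEP and GMP, and -0.16 between GMP and CMP. Of the 32 members called higher in MEP than in CMP, 11 had a lower mean TPM there, as did 5 of the 36 called against GMP. Without mouse 305, 7 rather than 3 members were lower in MEP than in CMP. The 4 members higher in GMP than in CMP became 1, 9 and 2 without mouse 300, 305 and 309.

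A few members did not follow the others across WT populations. Pimreg, which encodes a mitotic regulator that binds the clathrin assembly protein PICALM, had 72.2, 66.6 and 75.6 TPM in WT CMP, 43.7, 40.7 and 48.0 in WT GMP and 3.38, 2.30 and 4.14 in WT MEP, and no 2 of the populations overlapped. It was the member with the largest difference for each pair of populations: -0.55 ± 0.10 (SE, adjusted p = 0.000466) in GMP against CMP, -4.12 ± 0.12 (SE, adjusted p = 2.38e-11) in MEP against CMP and -3.57 ± 0.12 (SE, adjusted p = 1.07e-11) in MEP against GMP (log2 differences of the edgeR fit). Kif23, a motor of the central spindle needed for cytokinesis, went the same way in MEP, with 36.3, 40.0 and 43.3 TPM in CMP, 31.4, 37.7 and 36.6 in GMP, and 15.8, 20.2 and 16.8 for MEP, a log2 difference of -0.87 ± 0.07 (SE, adjusted p = 7.16e-08) between MEP and CMP. Cenpa, the histone H3 variant that marks centromeres, went the other way, from 129, 122 and 127 TPM in GMP and 167, 178 and 178 in CMP to 377, 398 and 351 in MEP, 1.35 ± 0.06 (SE, adjusted p = 4.97e-10) against CMP and 1.67 ± 0.06 (SE, adjusted p = 3.83e-11) against GMP. The signs of these MEP differences held with library totals alone. Between 19.9% and 29.1% of the estimated counts of Cenpa in a library fell on its protein-coding transcripts, and its leading transcript, with 27.8% to 55.1%, is annotated for nonsense-mediated decay, while Kif23 has 1 transcript in the files and Pimreg had 86.9% to 100% of its counts on coding transcripts.

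The effect of Arid1a deletion was examined in each population by a fit of its own. Of the 42 members, 27 rose and 1 fell in KO GMP and 22 rose and 2 fell in KO MEP, while in KO CMP 1 rose and 1 fell (edgeR's quasi-likelihood test, FDR under 0.1). Over all genes tested, 17.5% were called higher and 16.3% lower in GMP, 14% and 15.4% in MEP, and 10.6% and 12.8% in CMP. The changes were small: the median log2 fold change of the members was 0.20 in GMP, 0.19 in MEP and 0.02 in CMP, where that of all genes was -0.01, -0.00202 and -0.00268. Both GMP and MEP had 14 members called higher, 13 members were called higher in GMP and not in MEP, and 8 in MEP and not in GMP. The 7 members called higher in neither were Bub1, Cenpa, Fzr1, Incenp, Mad2l1, Pimreg and Sgo1. The GMP count moved with the scaling and with single libraries. With library totals alone 10 members rose and 2 fell in KO GMP, their median was 0.10 and that of all genes was -0.11, and calls over all genes went from 2874 higher and 2676 lower to 1909 and 4026. The 10 were Anln, Aurka, Aurkb, Ccna2, Ccnb1, Cdk1, Kif20a, Plk1, Tpx2 and Ube2c, and the 2 were Kif23 and Pimreg. Every other member called higher in KO GMP lost its call under library totals. Without KO GMP 301 the members called higher were 17. The TMM factors were 0.960 to 0.969 in KO GMP and 1.01 to 1.05 in WT GMP, and TPM is a scale that these factors do not touch. By TPM the median of the members over their WT mean (log2) was 0.09, 0.04 and 0.00439 in KO GMP 301, 304 and 308, 0.09, 0.19 and 0.04 in the KO CMP of these mice, and 0.25, 0.31 and 0.17 in their KO MEP. On that scale KO GMP thus did not stand above KO CMP, and 38 members in CMP, 28 in GMP and 40 in MEP had a higher mean in KO than in WT. No TPM value over all genes is given here, so these values do not place the members against other genes. Under library totals, which lack these factors too, 34.4% of all genes tested were positive in KO GMP, 54.2% in CMP and 49.7% in MEP. The sums of the 42 members were 2984 to 3181 TPM in KO GMP and 2927 to 3029 in WT GMP, which overlapped, and 3501 to 3945 in KO CMP and 3348 to 3512 in WT CMP, which overlapped too. In MEP the counts under library totals were 24 and 2, and the sums were 4129 to 4595 TPM in KO and 3584 to 4080 in WT, without overlap. The MEP count moved with single libraries too. The members called higher there were 15 without WT MEP 300 or KO MEP 301, and 32 without WT MEP 305. In CMP 2 members rose without KO CMP 308 or WT CMP 305, and 2 fell without WT CMP 300.

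**Figure D2:**
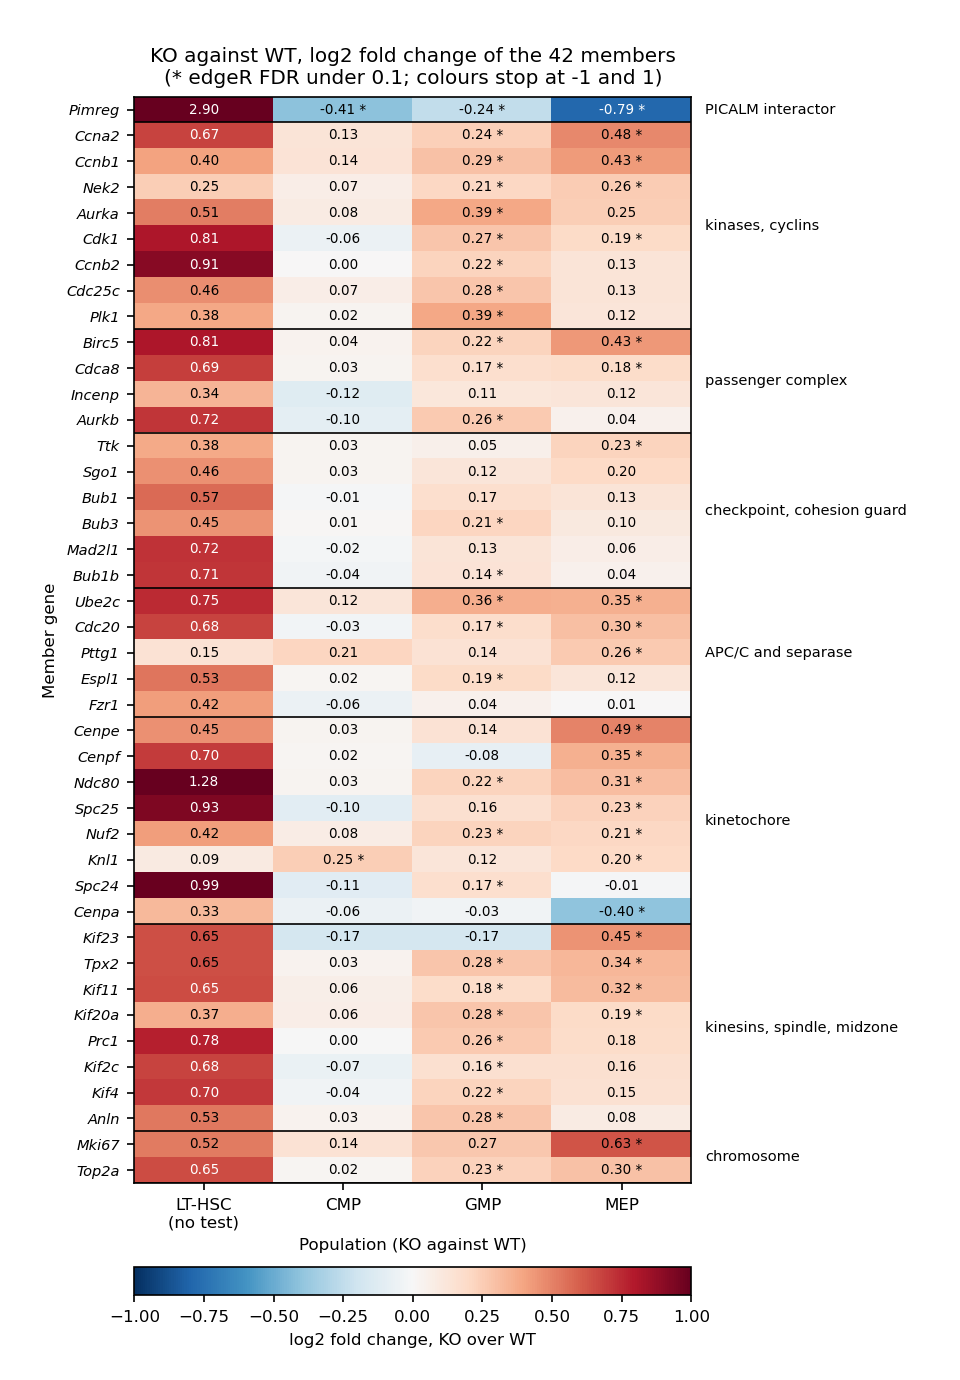
Log2 fold change of each member, KO over WT, in LT-HSC, CMP, GMP and MEP, with members grouped by role and ordered by the MEP value. Asterisks mark an FDR under 0.1 in the precursors, and LT-HSC values carry no test. Most cells of the GMP and MEP columns are positive, the CMP column is near 0, and Pimreg is negative in all 3 precursor columns.

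**Figure D3:**
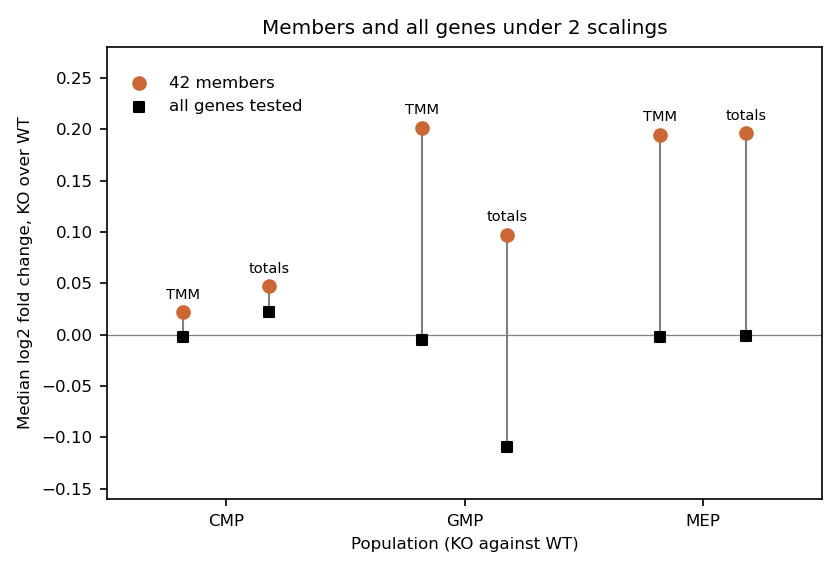
Median log2 fold change, KO over WT, of the 42 members (circles) and of all genes tested (squares) in CMP, GMP and MEP, under TMM and under library totals alone. In GMP the members' median goes from 0.20 to 0.10 and that of all genes from -0.01 to -0.11, while in MEP neither moves by as much as 0.01.

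Markers of cell types moved within the gates at the same time. Beside them, the shares of all genes called higher and lower were 17.5% and 16.3% in GMP, 14% and 15.4% in MEP, and 10.6% and 12.8% in CMP. In GMP, the 8 granulocyte-monocyte markers summed to 30250.3 to 35403 TPM in WT and 39546 to 44683 in KO, with 5 called higher and 3 lower, and the 5 mast cell and basophil markers to 741 to 1212 and 119 to 171, all 5 lower. The 6 mature neutrophil markers had 158 to 358 TPM in WT and 309 to 1205 in KO GMP, which overlapped, with 2 called higher and 2 lower. In MEP, the 10 erythroid markers summed to 7295 to 8182 TPM in WT and 5957 to 6269 in KO, although 6 were called higher and 1 lower, and the 7 megakaryocyte markers to 25.8 to 48.4 and 72.7 to 97.8, with 3 higher. In CMP, 9 of 10 erythroid markers were higher in KO (1285 to 1408 TPM in WT, 1975 to 2347 in KO), and 5 of 8 granulocyte-monocyte markers were lower. Also lower there were 5 of 6 mature neutrophil markers and 4 of 5 mast cell and basophil markers. Of the 7 megakaryocyte markers 1 was higher and 5 were lower in CMP, and 1 and 2 in GMP. They summed to 771 to 1134 TPM in WT and 598 to 623 in KO CMP, and to 107 to 228 and 73.1 to 93.4 in GMP. The members' median in CMP stayed at 0.02. Cd3e, a T cell marker, was at 0 in the KO MEP libraries. Their part in the members' levels was not tested.

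All 8 members of the kinase and cyclin group rose in KO GMP, with log2 fold changes from 0.21 to 0.39, and 4 of them rose in KO MEP. Ccnb2, Cdc25c and Nek2 lost their GMP calls with library totals alone. Cdk1 had 124, 111 and 118 CPM in the GMPs of WT mice 300, 305 and 309 and 142, 143 and 141 in those of KO mice 301, 304 and 308, so that each KO value lay above each WT value. Its log2 fold change was 0.27 ± 0.06 (SE, adjusted p = 0.00713) in GMP and 0.19 ± 0.06 (SE, adjusted p = 0.053) in MEP, where the WT values were 168, 193 and 172 and the KO values 201, 204 and 202 CPM. Ccnb1 encodes cyclin B1, the partner of CDK1. It had 125, 115 and 128 CPM in WT and 155, 149.8 and 146 in KO GMP, and 169, 219 and 176 in WT and 259, 273 and 226 in KO MEP. The groups did not overlap in either population, and the log2 fold changes were 0.29 ± 0.06 (SE, adjusted p = 0.00588) and 0.43 ± 0.11 (SE, adjusted p = 0.0247). Ccna2, or cyclin A2, which acts in S phase and early mitosis, gave one of the larger differences of MEP, with 275, 339 and 271 CPM in WT and 409.8, 445 and 378 in KO, a log2 fold change of 0.48 ± 0.10 (SE, adjusted p = 0.00958). Ccna2 overlaps Exosc9 on the other strand, as Cdc20 does Elovl1, Ube2c does Tnnc2 and Kif20a does Cdc23. The counting is not stated to use strand, so that reads of such pairs may be mixed.

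Plk1 and Aurka, the Polo-like kinase and Aurora kinase of spindle poles, had the largest rises of any members in KO GMP. Plk1 had 75.4, 87.4 and 83.6 CPM in WT GMP and 104, 114 and 105 in KO GMP, and Aurka had 62.4, 63.2 and 61.4 CPM in WT and 80.2, 87.2 and 77.9 in KO. In both genes all KO values exceeded all WT values, with log2 fold changes of 0.39 ± 0.07 (SE, adjusted p = 0.00349) and 0.39 ± 0.06 (SE, adjusted p = 0.00182). In MEP Plk1 had 134, 168 and 131 CPM in WT and 154, 168 and 150.3 in KO, with overlapping groups and a log2 fold change of 0.12 ± 0.10 (SE, adjusted p = 0.425), which did not pass the threshold. Cdc25c (0.28), Ccnb2 (0.22) and the centrosomal kinase gene Nek2 (0.21) completed the rises in GMP, and Nek2 (0.26) that of MEP, all as log2 fold changes. In KO CMP their log2 fold changes lay between -0.06 and 0.14, and 0 of the 8 were called by edgeR or DESeq2 or had an edgeR unadjusted p under 0.05.

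**Figure D4:**
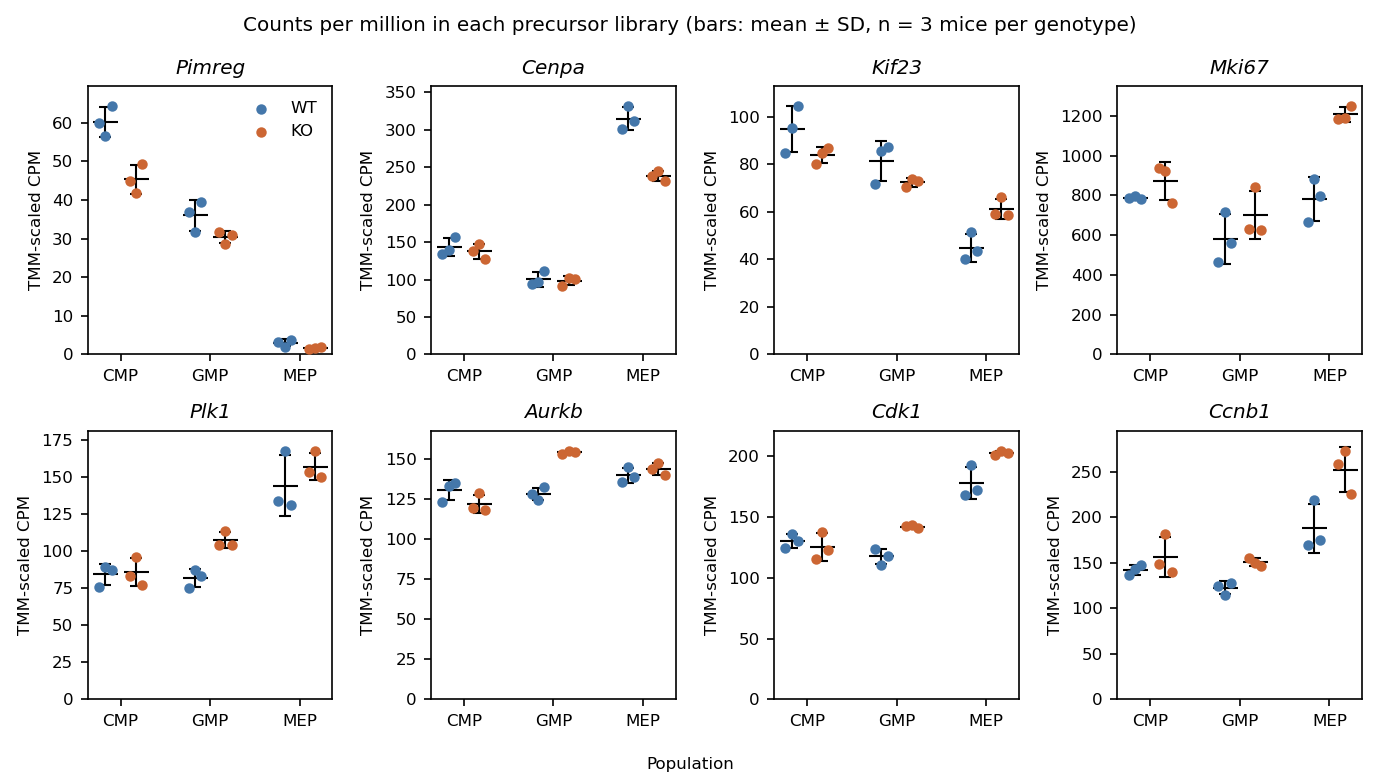
TMM-scaled CPM of 8 members in each precursor library, WT and KO, with bars for the mean and SD of 3 mice. Cdk1, Ccnb1, Plk1 and Aurkb have all KO GMP points above the WT GMP points, Kif23 and Mki67 rise in KO MEP, and Cenpa and Pimreg fall there.

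Of the 4 passenger complex genes, 3 rose in KO GMP and 2 in KO MEP. Aurkb, the kinase of the complex that corrects wrong attachments, had 128, 124 and 132 CPM in WT GMP and 153, 155 and 154 in KO GMP. The KO values were close together and lay above all WT values, a log2 fold change of 0.26 ± 0.05 (SE, adjusted p = 0.00462). In MEP the groups overlapped, with 136, 145 and 139 CPM in WT and 144, 147 and 139.7 in KO (0.04 ± 0.05 SE, adjusted p = 0.613). Birc5 rose in both populations, with log2 fold changes of 0.22 in GMP and 0.43 in MEP, as did Cdca8 (borealin) with 0.17 and 0.18. Both lost their GMP calls with library totals alone. Incenp, the scaffold of the complex, had 0.11 and 0.12 and was not called in either.

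Of the 6 checkpoint genes few were called. Bub1b and Bub3 rose in KO GMP and Ttk, the kinase that starts checkpoint signalling, rose in KO MEP (0.23), and the group medians were 0.13 and 0.12. Bub1b encodes BUBR1, an inhibitor of the anaphase-promoting complex. It had 156, 165 and 163 CPM in WT GMP and 179, 182 and 172 in KO GMP, with no overlap. The log2 fold change was 0.14 ± 0.05 (SE, adjusted p = 0.0936), close to the threshold, and the call was lost with library totals alone. By TPM the GMP groups overlapped, with means of 70.9 in WT and 70.7 in KO. In MEP the WT values, 178, 202 and 183 CPM, and the KO values, 184, 202 and 193, overlapped (0.04 ± 0.06 SE, adjusted p = 0.713). Mad2l1, Bub1 and Sgo1 were called in no precursor population, with log2 fold changes between -0.02 and 0.20.

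Among the 5 genes of mitotic exit, Cdc20 and Ube2c, the activator and the ubiquitin-conjugating enzyme of the anaphase-promoting complex, rose in both GMP and MEP. Cdc20 had 127, 123 and 133 CPM in WT GMP and 146, 144 and 143 in KO, and 164, 188 and 157 in WT MEP and 203, 221 and 200.2 in KO. Its log2 fold changes were 0.17 ± 0.05 (SE, adjusted p = 0.0401) and 0.30 ± 0.08 (SE, adjusted p = 0.0247), and KO and WT values in CPM did not overlap in either population. By TPM those of GMP overlapped. Ube2c had 78.2, 81.5 and 82.5 CPM in WT GMP and 101, 111 and 99.6 in KO GMP, a log2 fold change of 0.36 ± 0.06 (SE, adjusted p = 0.00268) with no overlap, and 0.35 in MEP. Espl1, or separase, which cleaves cohesin, rose in GMP alone among the calls (0.19), and Pttg1, or securin, its inhibitor, in MEP (0.26). Fzr1, the coactivator that keeps the complex active in G1 rather than in mitosis, changed by -0.06 in CMP and by 0.04 and 0.01 in GMP and MEP (log2) and was not called.

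Of the 8 kinetochore genes, 3 rose in KO GMP, while in KO MEP 6 rose and Cenpa fell. The 3 of GMP, Ndc80, Nuf2 and Spc24, lost their calls there with library totals alone. By the interaction test given below, the KO effect differed between MEP and GMP for Cenpe, Cenpf and Cenpa alone among the 8. Ndc80, whose product binds microtubules, rose in both. It had 36.9, 36.1 and 38.5 CPM in WT GMP and 42.8, 44.2 and 42.8 in KO, 36.4, 43.5 and 41.8 in WT MEP and 48.6, 50.8 and 51.1 in KO, without overlap in either population. The log2 fold changes were 0.22 ± 0.06 (SE, adjusted p = 0.0248) and 0.31 ± 0.07 (SE, adjusted p = 0.0197). Cenpe, a kinetochore motor that carries chromosomes to the spindle equator, had 88.7, 111 and 103 CPM in WT MEP and 139, 140.5 and 147 in KO MEP, all KO values being higher, a log2 fold change of 0.49 ± 0.08 (SE, adjusted p = 0.0038). In GMP its groups overlapped (0.14, not called). Knl1, a scaffold on which checkpoint proteins gather, was the 1 member called higher in CMP, with 135, 126 and 136 CPM in WT and 159.7, 164 and 145 in KO, no overlap and a log2 fold change of 0.25 ± 0.06 (SE, adjusted p = 0.0271). It also rose in MEP (0.20).

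Cenpa fell in KO MEP, against the direction of most members. Its WT values there were 301, 332 and 312 CPM and its KO values 238, 244.7 and 232, with every KO value below every WT value and a log2 fold change of -0.40 ± 0.05 (SE, adjusted p = 0.00103). The TPM values, which take transcript length into account, were 377, 398 and 351 in WT and 281, 281 and 266 in KO. In CMP and GMP the groups overlapped, with log2 fold changes of -0.06 and -0.03 that were not called. The MEP value stayed between -0.44 and -0.37, and called, when each of the 6 libraries was left out in turn, and it was negative with library totals alone.

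Of the 8 kinesin and spindle genes, 7 rose in KO GMP and 4 in KO MEP. Kif11 had 208, 205 and 199.8 CPM in WT GMP and 229, 229.6 and 238 in KO GMP, and 213, 243 and 229 in WT MEP and 282, 279 and 293 in KO MEP. The groups were apart in both, with log2 fold changes of 0.18 ± 0.05 (SE, adjusted p = 0.0302) and 0.32 ± 0.06 (SE, adjusted p = 0.00544). By TPM the GMP groups of Kif11 overlapped. Tpx2, which brings Aurora A to the spindle, rose by 0.28 and 0.34 on the log2 scale, and Kif20a, a motor of the midzone, by 0.28 and 0.19. Kif2c, Kif4, Prc1 and Anln, genes for a microtubule depolymerase, a chromosome motor, a bundler of midzone microtubules and the scaffold anillin, were called in GMP (0.16 to 0.28) and not in MEP (0.08 to 0.18). With library totals alone Kif11, Kif2c, Kif4 and Prc1 lost their GMP calls. Kif23 was the exception in GMP. It had 71.8, 85.5 and 87.2 CPM in WT GMP and 70.3, 73.8 and 72.9 in KO GMP, overlapping, with a log2 fold change of -0.17 ± 0.08 (SE, adjusted p = 0.156), and -0.17 in CMP, also not called. With library totals alone Kif23 was called lower in KO GMP. In MEP it had 40.0, 51.5 and 43.4 CPM in WT and 59.1, 66.0 and 58.5 in KO, so that all KO values were higher (0.45 ± 0.10 SE, adjusted p = 0.0132).

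Mki67 had the largest rise of any member in KO MEP. Its values were 666, 885 and 798 CPM in WT and 1187, 1187 and 1250.3 in KO. The KO values were close to each other and above all WT values, at a log2 fold change of 0.63 ± 0.09 (SE, adjusted p = 0.00232). In GMP it had 466, 716 and 562 CPM in WT and 633, 841 and 628 in KO. These groups overlapped and the difference was not called (0.27 ± 0.16 SE, adjusted p = 0.269). Top2a rose in both: from 614, 686 and 635 to 760.5, 808 and 700.1 CPM in GMP and from 592, 730.03 and 691 to 824, 850.4 and 796 in MEP, by 0.23 ± 0.08 (SE, adjusted p = 0.055) and 0.30 ± 0.07 (SE, adjusted p = 0.0248) on the log2 scale, with no overlap. By TPM its GMP values overlapped.

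Pimreg (ENSMUSG00000020808, chromosome 11, 72042032 to 72047370 of GRCm38, plus strand) was called lower in all 3 KO precursor populations and was the 1 member for which that held. In CMP it had 59.9, 56.5 and 64.4 CPM in WT and 44.8, 41.7 and 49.4 in KO, with no overlap and a log2 fold change of -0.41 ± 0.08 (SE, adjusted p = 0.00833). In GMP the WT values were 37.0, 31.6 and 39.4 and the KO values 31.6, 28.7 and 30.9 CPM. The lowest WT library and the highest KO library were almost level there, and the log2 fold change of -0.24 ± 0.09 (SE, adjusted p = 0.0733) lost its call without WT GMP 300 or 309 or any of the KO GMP libraries, at values from -0.29 to -0.19. In MEP, where the gene was near its lowest, WT had 3.28, 2.05 and 3.72 and KO 1.43, 1.79 and 2.02 CPM. The highest KO library was only just below the lowest WT library, and the log2 fold change was -0.79 ± 0.26 (SE, adjusted p = 0.0654). This call too was lost without WT MEP 300 or 309 or without KO MEP 301 or 304, at values from -0.80 to -0.61.

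In LT-HSCs the direction of Pimreg was the opposite. It had 7.24 and 11.0 CPM in WT mice S245 and S269 and 56.0 and 80.2 in KO mice S244 and S270, so that both KO values were far above both WT values, and the fitted log2 fold change was 2.90. That value chose Pimreg and carries no test here. Fits that left out 1 of the 4 libraries gave 2.65 to 3.20. By TPM the KO LT-HSCs, with 57.6 and 80.0, lay on either side of WT CMP and above WT GMP, whose values are given above, although the kits differed between these libraries.

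All 42 members had a positive fitted log2 fold change in LT-HSCs, from 0.09 to 2.90, with a median of 0.65 where the median of all genes tested was -0.16. By mean TPM, 39 of the 42 were higher in KO, with a median of 0.34, and Ttk (-0.12), Pttg1 (-0.13) and Nek2 (-0.18) were lower. Behind Pimreg the largest fitted values were those of Ndc80 (1.28) and Spc24 (0.99), both subunits of the NDC80 complex. The smallest were those of Nek2 (0.25), Pttg1 (0.15) and Knl1 (0.09). Ndc80 had 10.5 and 21.0 CPM in WT and 34.9 and 41.7 in KO, and Spc24 had 36.6 and 71.4 in WT and 98.9 and 116 in KO. In both the KO libraries were highest, and WT S245 was lowest. Nek2 had 26.4 and 76.1 CPM in WT and 55.5 and 66.2 in KO. Pttg1 had 31.3 and 41.7 CPM in WT and 36.9 and 44.0 in KO, and Knl1 had 19.7 and 34.8 in WT and 30.8 and 27.1 in KO. In these 3 genes WT S269 was inside or above the KO range, and Knl1 and Pttg1 turned negative with library totals alone. Both KO libraries were above both WT libraries in 20 of the 42 members, a pattern that 16.9% of the 22733 genes tested had, and the groups overlapped in 22.

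Much of the LT-HSC difference lay in 1 library. WT S245 was the lowest of the 4 libraries in 41 members, and the level in WT S269 was 2.51 times that in WT S245 at the median of the members. WT S269 was above KO S244 in 20 members and above KO S270 in 11. Cdk1 had 34.9 and 86.6 CPM in WT S245 and S269 and 110.3 and 103 in KO S244 and S270. Plk1 had 41.5 and 131 CPM in WT and 106 and 119 in KO, and Mki67 had 43.4 and 77.1 in WT and 87.7 and 85.0 in KO. In each, WT S269 was nearer to the KO libraries than to WT S245. Left without WT S245, the members had a median of 0.15 with 28 of 42 positive, against 0.07 for all genes, and without WT S269 a median of 1.39. The 31 genes of S phase had a median of 0.50 in the full fit, with 30 positive, and the median of their levels over the WT mean was -0.61 (log2) in WT S245 and 0.43 to 0.55 in the other libraries. The 6 mature neutrophil markers summed to 445 to 2543 TPM in WT and 369 to 391 in KO LT-HSCs, and the 8 stem cell markers to 939 to 1210.5 and 736 to 952. Their part in the members' levels was not tested.

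**Figure D5:**
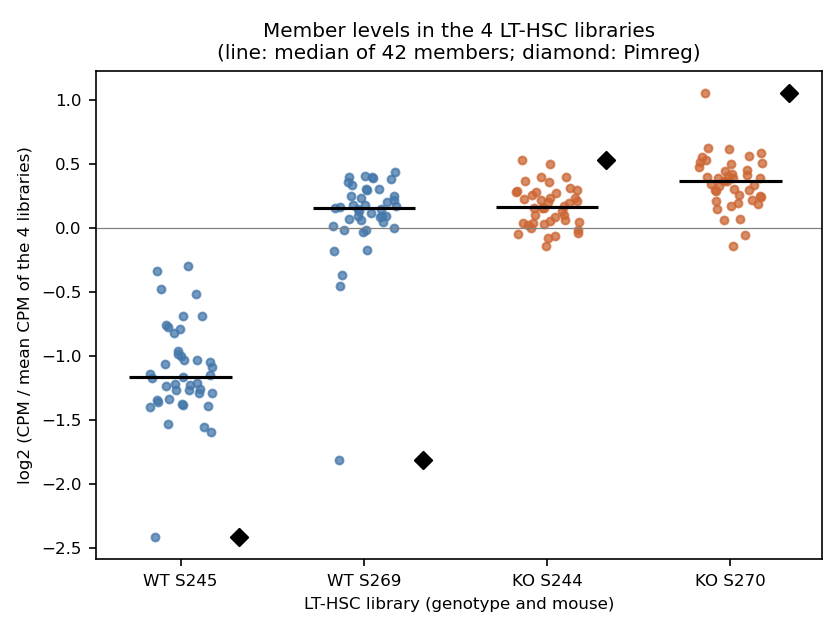
Level of each member in the 4 LT-HSC libraries, as log2 of its CPM over its mean CPM in the 4 libraries. Lines mark the median of the 42 members and diamonds mark Pimreg. Most points of WT S245 lie below those of the other libraries, the medians of WT S269 and KO S244 are close, and Pimreg separates both WT from both KO libraries by the widest gap.

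Whether the KO effect differed between precursor populations was tested by the interaction term of the joint edgeR fit, again with mice as blocks. The effect was more positive in GMP than in CMP for 15 members (10.9% of all genes tested), and for none was it more negative (10% of all genes) by edgeR, also at an unadjusted p under 0.05. Plk1 and Aurkb had the largest of these differences. Plk1 changed by 0.02 in CMP and 0.39 in GMP, a difference of 0.37 ± 0.09 (SE, adjusted p = 0.00963), and Aurkb by -0.10 and 0.26, a difference of 0.37 ± 0.07 (SE, adjusted p = 0.00174). For MEP against CMP, 13 members had a more positive effect (5.67% of all genes) and 1, Cenpa, a more negative one (7.38%). The larger were Kif23 (0.62 ± 0.10 SE, adjusted p = 0.00108) and Mki67 (0.50 ± 0.15 SE, adjusted p = 0.0606), and Cenpa had -0.35 ± 0.09 (SE, adjusted p = 0.0232). These counts were not stable. The 15 became 3 with library totals alone, Aurkb, Cdk1 and Plk1, and by mean TPM 8 of the 15 had a smaller KO effect in GMP than in CMP, as had 35 of all 42 members. By TPM Aurkb had means of 127 in WT and 128 in KO CMP and 131 in WT and 139 in KO GMP. The 15 became 5 without the mouse as a block and 8, 4, 7, 8 and 6 without mouse 300, 301, 305, 308 and 309. The 13 became 8 without the block and 4, 4, 4 and 2 without mouse 300, 301, 308 and 309, while 17 were called without mouse 305. Cenpa was not called without mouse 304, and 2 members had a more negative effect without mouse 305. Of the differences given here, those of Plk1 and Mki67 were not called without the block. Under library totals the median of all genes moved to -0.15 for GMP against CMP.

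Between MEP and GMP, 3 members had a more positive KO effect in MEP (12.2% of all genes tested) and 5 a more negative one (14.6%). As shares of the 42 members, both counts were below those of all genes. Kif23 changed by -0.17 in GMP and 0.45 in MEP, a difference of 0.61 ± 0.10 (SE, adjusted p = 0.000511). Cenpf changed by -0.08 and 0.35, a difference of 0.42 ± 0.14 (SE, adjusted p = 0.0457), and Cenpe was the third. In the other direction Pimreg (-0.55 ± 0.17 SE, adjusted p = 0.0396) and Cenpa (-0.38 ± 0.09 SE, adjusted p = 0.00696) led, followed by Plk1, Aurkb and Anln. Cenpf had 66.0, 99.5 and 81.9 CPM in WT GMP and 73.2, 90.1 and 70.7 in KO GMP, overlapping, and 68.8, 79.1 and 81.6 in WT MEP and 93.8, 102 and 97.8 in KO MEP, where all KO values were higher. With library totals alone the counts were 11 and 2 instead of 3 and 5. Without mouse 305 they were 7 and 2 and without mouse 308 they were 1 and 3, and the 5 became 3, 2 and 3 without mouse 300, 301 and 309. Cenpf and Pimreg were not called without the block, and under library totals the median of all genes was 0.12.

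Other mitosis genes, a list of 110 that includes further subunits, cohesins and condensins, gave 34 higher and 6 lower in KO GMP, 37 and 4 in KO MEP, and 3 and 6 in KO CMP, with medians of 0.13, 0.13 and -0.01. In GMP the largest were Ska1 (0.44 ± 0.10, SE), a microtubule-binding kinetochore protein, and Tacc3 (0.40 ± 0.06), a spindle protein, on the rising side, with Cdc25b (-0.42 ± 0.09), a phosphatase of CDK1, and Fam83d (-0.37 ± 0.11) on the falling side. In MEP, Cdc25b (0.74 ± 0.10) and Fam83d (0.62 ± 0.11) were instead the largest rises, and Cep55 (-0.76 ± 0.21), a protein of abscission, and Hjurp (-0.20 ± 0.07), the chaperone that loads CENP-A, the largest falls. Smc2 (0.27 ± 0.05) and Wapl (0.26 ± 0.07) rose and Cenpb (-0.33 ± 0.06) and Pkmyt1 (-0.32 ± 0.06) fell in CMP. Of the 31 S phase genes, 9 rose in KO GMP, 4 rose and 3 fell in MEP, and 1 rose and 2 fell in CMP. The counts of MEP and CMP are shares below those of all genes, of which 14% rose and 15.4% fell in MEP and 10.6% rose and 12.8% fell in CMP, while 17.5% rose in GMP. Ccne1, the cyclin of S phase entry, rose in each population, by 1.10 ± 0.20 in CMP, 0.87 ± 0.07 in GMP and 0.53 ± 0.12 in MEP. Rrm2 (0.58 ± 0.07 in GMP) and Rrm1 (0.32 ± 0.07 in MEP), subunits of ribonucleotide reductase, also rose, while Rfc5 (-0.33 ± 0.06) and Rfc2 (-0.30 ± 0.05), clamp loader subunits, fell in MEP and Cdt1 (-0.27 ± 0.05) and Pola1 (-0.21 ± 0.06) fell in CMP.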

How the data were processed

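RNA-seq of 22 libraries was analysed. Reads of 100 bp had been assigned to transcripts with kallisto by the authors, who name Ensembl release 84 and, in the submitters' processing notes, mm10. The deposited files give, for each transcript, an estimated count, a TPM value and an effective length in bases. Of 115088 transcripts, 114200 (99.2%) were matched by identifier to a gene and summed to 47311 genes. The members and the gene lists were chosen with earlier results of these data known.

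Estimated counts were summed per gene, rounded to whole numbers and tested in R 4.3.3 with edgeR 4.0.16 (quasi-likelihood F-test, TMM, filterByExpr, Benjamini-Hochberg over all genes tested, FDR under 0.1). KO and WT were compared in a fit for each population. WT populations and the interactions of genotype and population came from 1 joint fit to the 18 precursor libraries that had each mouse as a block, since each mouse gave all 3 populations. Deviations of libraries of the same mouse from their group means correlated at 0.033 to 0.481. SE is the log2 difference over the square root of F. CPM values are scaled by TMM within a population.

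The alternatives tried were size factors by median of ratios, a fit with no filter, an offset for effective length, DESeq2 1.42.0, each library or mouse left out, the block dropped or added, 1 fit of the precursors, library totals alone and ratios of mean TPM with no test, the last 2 added after the data had been seen. Scripts were tested on simulated counts. No 2 libraries were identical. Library totals were 40804031 to 65930737 counts. The genes named are Pimreg, the 4 members called with the largest change in each direction of each population, the extremes of WT levels, of LT-HSC values and of interactions, and 1 or more members of most roles fixed by name. Other members are given by group with fold changes alone. Figures were drawn with matplotlib 3.10.9.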

Additional observations from a re-analysis of the deposited data

Results flagged for a closer look

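The KO effect differed between precursor populations for several members, by a test of the difference itself (edgeR, interaction of genotype and population, FDR under 0.1). It was more positive in GMP than in CMP for 15 members (10.9% of all genes tested), among them Plk1 (0.37 on the log2 scale) and Aurkb (0.37). This count was 3 with library totals alone, where the median difference of all genes was -0.15. By mean TPM 8 of the 15 had a smaller KO effect in GMP than in CMP. In MEP the KO effect was more positive than in CMP for 13 members (5.67% of all genes), with Kif23 (0.62) and Mki67 (0.50) the larger. It was more negative for 1 (7.38% of all genes), Cenpa (-0.35). The 13 became 2 without mouse 309 and 17 without mouse 305. Between MEP and GMP the KO effect was more positive in MEP for 3 members (12.2% of all genes), Kif23 (0.61) and Cenpf (0.42) leading. It was more negative for 5 (14.6% of all genes), with Pimreg (-0.55) and Cenpa (-0.38) leading. As shares of the 42 members, the 3 and the 5 were below those of all genes. Among the differences named, those of Plk1, Mki67, Cenpf and Pimreg were not called without the mouse as a block.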

How the results depend on the processing

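Of the counts and medians computed under alternatives, 239 stayed on the same side of the limits set for them, 39 were lower, 12 higher and 10 moved by more than the spread between samples. Of the values of named members, 532 kept direction and call, 54 lost and 4 gained a call and 12 changed sign. With library totals alone, 10 members were higher and 2 lower in KO GMP, with a median of 0.0972. In WT GMP against CMP the counts were then 0 higher and 26 lower, with a median of -0.1507, and in WT MEP against CMP 9 were lower, with a median of 0.1180. The interaction counts were then 3 (GMP over CMP), 11 (MEP over GMP) and 2 (MEP under GMP). Without the replicate block by mouse, which came from the design, 2 members were higher in WT GMP than in CMP, and the interaction counts were 5 (GMP over CMP), 8 (MEP over CMP) and 3 (MEP under GMP). A replicate block that paired S245 with S244 and S269 with S270 moved the LT-HSC median to 0.7232 and Pimreg to 2.9104. With no filter, 0 members were lower in KO GMP and 1 was higher in WT GMP than in CMP. With all 18 libraries in 1 fit, 0 were lower in KO GMP. With the length offset, 5 were lower in WT MEP than in CMP, 3 had a more negative KO effect in MEP than in GMP, and Cenpa in KO GMP was 0.0430. By mean TPM the median for KO over WT was 0.344 in LT-HSC, 0.1194 in CMP and 0.0436 in GMP. For WT GMP minus CMP, MEP minus CMP and MEP minus GMP it was -0.1616, 0.0307 and 0.2766. With library totals alone Knl1 and Pttg1 in LT-HSC were -0.0612 and -0.0342. The cause of these shifts was not tested. Leaving out 1 library or mouse gave 1 to 2 members higher and 1 to 2 lower in KO CMP, and 17 to 24 higher and 0 to 1 lower in KO GMP. In KO MEP it gave 15 to 32 higher and 1 to 2 lower, and in LT-HSC a median of 0.1473 to 1.3888. It gave 1 to 9 members higher in WT GMP than CMP, 3 to 7 lower in WT MEP than CMP, and a median of 0.2893 to 0.4199 for WT MEP minus GMP. The interaction counts went from 4 to 11 (GMP over CMP), 2 to 17 and 0 to 2 (MEP over and under CMP), and 1 to 7 and 2 to 5 (MEP over and under GMP). Changes of sign among precursor values were within Cenpa in CMP (-0.1126 to 0.0059) and GMP (-0.1010 to 0.0334), Cenpf in GMP (-0.2358 to 0.0632) and Plk1 in CMP (-0.0674 to 0.0907), none of which was called. In LT-HSC, Knl1 (-0.2422 to 0.5218), Nek2 (-0.3024 to 1.1707) and Pttg1 (-0.0248 to 0.3338) turned negative without WT S245. Where 1 WT or KO LT-HSC library was left out, the lone library was assumed to vary like the others.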
